A study of Mus musculus with 2 samples.

Results

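The genes Crybb1, Ecscr, Ltc4s, Gp9, Slc2a5, Thrsp, Ckb, Inka1, Bank1 and Adgrg1, which are high in control and low in knockout microglia, were followed through every mouse and cell class of a single-cell RNA sequencing experiment on mouse brain. All 10 were found among the 32285 genes of the count matrices, and they were chosen by their measured levels in microglia, as the leading genes of groups made mostly of control cells, so their difference between the genotypes is described here and not tested. CD45+ cells were sorted from the brains of 12-week-old mice, labelled with 1 multiplexing tag per mouse, pooled and sequenced as 1 droplet library of 3′ ends. The 4 control mice were Cre-negative Arpc4 fl/fl, and the 4 Arpc4ΔCx3cr1 mice were Tg(Cx3cr1-Cre) Arpc4 fl/fl littermates that lack Arpc4, a subunit of the actin-nucleating Arp2/3 complex, in cells that have expressed Cre from the Cx3cr1 transgene, microglia among them. Both groups carried the floxed alleles and only the knockout carried Cre, so deletion and presence of the transgene cannot be told apart in these samples. According to the study's methods the controls were male and the knockout group included a female, which the authors excluded from downstream analysis. The labels do not name that mouse, and Xist RNA was found in most microglia of Arpc4ΔCx3cr1 mouse 1. All 4 knockout mice are used here, and results that change when mouse 1 is left out are given without it as well.

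Microglia are the resident macrophages of the brain parenchyma. They arise from yolk sac progenitors, extend branched processes, and hold a homeostatic gene program that depends on transforming growth factor β and on signalling through the colony stimulating factor 1 receptor. That program is known to decline in activated microglia, while genes such as Apoe, Axl and Cst7 rise. Macrophages at the borders of the brain, in the meninges and around vessels, are a separate resident population and are called CNS-associated macrophages (CAMs).

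Of 19864 deposited cells, 19863 passed the filters, and no barcode was shared between mice. Clusters were formed on variable genes from which the 10 had been removed, and 17035 cells in clusters marked by Cx3cr1, Csf1r and further microglial genes were called microglia-like, 7798 from controls and 9237 from Arpc4ΔCx3cr1 mice. Between 1257 and 2831 cells were deposited per mouse, with a median of 3608 to 4364 UMIs (unique molecular identifiers, that is, counted RNA molecules) per cell. The summed level of the 11 microglial markers in these cells was 24361 to 24755 CPM (UMIs of a gene in every 1000000 UMIs of the summed cells) in controls and 9892 to 13906 CPM in knockouts. The T cell list summed to 1.33 to 2.58 CPM over all 8 mice, the platelet list to 1.86 to 4.33 CPM with Gp1bb at 0, and Cldn5, a defining gene of brain endothelium, was at 0. Other marker lists moved with genotype in the same cells. The CAM list summed to 36.0 to 69.0 CPM in controls and 204 to 369 CPM in knockouts, with Cbr2, Lyve1 and Cd163 under 1 CPM, the B cell list to 225 to 240.1 CPM and 71.8 to 138 CPM, and the erythroid list to 1.91 to 3.92 CPM in controls and 2.30 to 1342 CPM in knockouts. The part of these in the differences between the genotypes was not tested. Arpc4 itself was measured at 242, 224, 232 and 232 CPM in the control mice and at 146, 145, 136 and 132 CPM in the knockouts, a log2 fold change of -0.63 (SE 0.05, edgeR adjusted p = 5.63e-06). Arpc4 overlaps Ttll3 on the same strand, and whether the counted 3′ ends lie in the deleted exons was not given in the sources used here, so this value is a check of direction only.

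The promoters of these genes were inspected first, because the genes fell together. RefSeq start sites on GRCm38.p6 were available for 9 of the 10 genes, in 10 windows that run from 250 bases before to 50 bases after the start. TATAAA, the core of the TATA box, lay close to the start in 2 genes. The letters in capitals mark the motif, and each line reads 5′ to 3′ on the strand of the gene.
Crybb1, chr5:112255779-112255806, + strand: gtctgccaggcTATAAAatggggggttg
Ckb, chr12:111672350-111672377, - strand: aatgaatgggcTATAAAtagccgccaat
Either strand of TATAAA occurred in 3 of these 10 windows, the third being Bank1, in which it lay 234 bases before the start, and in 13.6% of all 32851 promoter windows of the table. CAGACA, which holds the short site bound by SMAD proteins, the transcription factors downstream of transforming growth factor β, was searched for because that pathway maintains microglia. It occurred in 4 windows, against 21.04% of all windows, and Thrsp carried it at 2 positions on opposite strands, overlapping neither each other nor a TATAAA match.
Thrsp, chr7:97417638-97417665, - strand: atcacctgataCAGACActggggaccaa
Thrsp, chr7:97417552-97417579, - strand: tgtcaatttgcTGTCTGctcaaaagcct
Adgrg1, chr8:94976983-94977010, + strand: gaatggcgctgCAGACAggatatggtct
The full SMAD palindrome GTCTAGAC occurred in none of the 10 windows and in 0.213% of all. The motifs GAGGAAGT (bound by PU.1), TATTTTTA (bound by MEF2 factors) and TGTGGTT (bound by RUNX factors) were in none of the 10 windows and in 3.20%, 2.72% and 5.27% of all windows. These are matches of letters and not measured binding sites.

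In microglia-like cells all 10 genes were lower in every Arpc4ΔCx3cr1 mouse than in any control mouse. The summed level of the 10 genes was 2820 to 2948 CPM in the controls and 491 to 759 CPM in the knockouts, and the median of their log2 fold changes was -2.67, where the median over all 12729 genes tested was -0.01. In that comparison 23.1% of all genes were called lower by edgeR at an adjusted p under 0.05, and 31.4% of all genes had all 4 knockout mice below all 4 controls, so a gene without overlap was common in these data. A log2 fold change of -2 or lower was less common, at 1.41% of genes, and 6 of the 10 genes reached it. Since the genes were selected for this contrast, these shares describe it and no more is read from them.

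**Figure D1:**
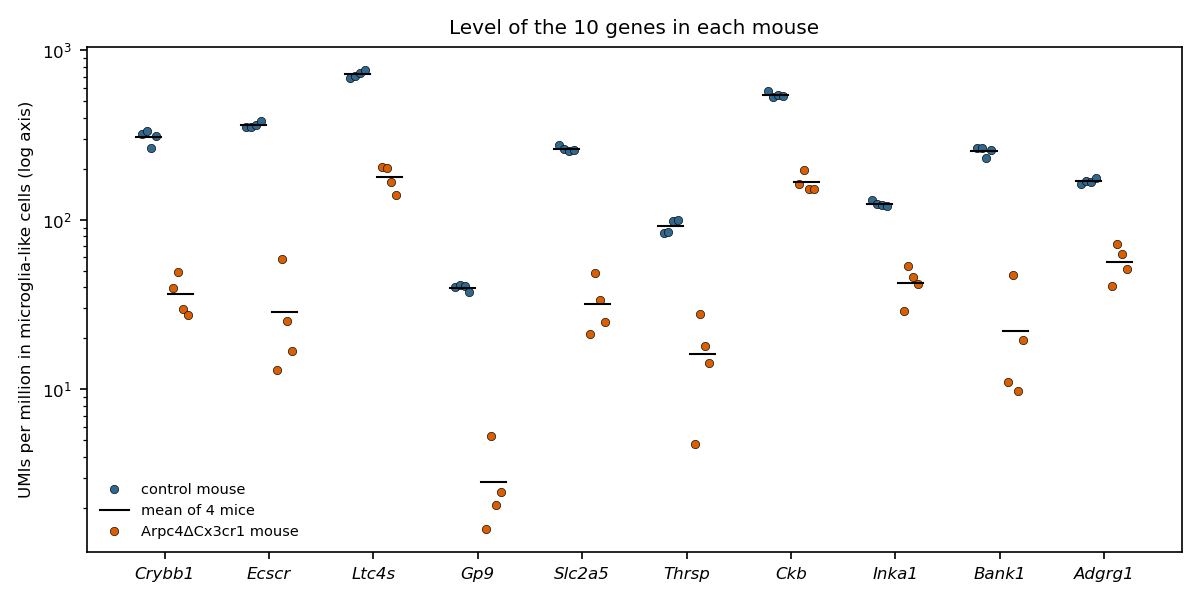
Level of each gene in microglia-like cells, in CPM on a log axis, with 1 point per mouse (4 control, 4 Arpc4ΔCx3cr1) and a line at the mean of each group. The groups do not overlap for any of the 10 genes, and the knockout mice are spread more widely than the controls, with mouse 2 highest for most genes.

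Ltc4s and Ckb encode enzymes of small-molecule metabolism. Ltc4s (chr11:50236461-50238616, - strand) encodes leukotriene C4 synthase, which conjugates leukotriene A4 with glutathione. It was at 688, 702, 734 and 765 CPM in the control mice and at 206, 201, 166 and 139 CPM in the knockouts. Its mean was 722 ± 34.5 CPM against 178 ± 31.2 CPM (SD, n = 4 mice each), a log2 fold change of -1.92 (SE 0.11). Ckb (chr12:111669361-111672338, - strand) encodes the brain type of creatine kinase, which regenerates ATP from phosphocreatine. Control mice held 576, 528, 542 and 539 CPM of Ckb, and knockouts 162, 197, 153 and 153 CPM. The log2 fold change of Ckb was -1.61 (SE 0.08). The knockouts kept 24.7% of the control mean of Ltc4s and 30.4% of that of Ckb.

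Slc2a5 and Thrsp are linked to sugar and fat metabolism. Slc2a5 (chr4:150119283-150144169, + strand) encodes the fructose transporter GLUT5. It was at 274, 261, 254 and 257 CPM in controls and at 21.2, 48.2, 33.8 and 24.98 CPM in knockouts, a log2 fold change of -2.93 (SE 0.20). Thrsp (chr7:97412938-97417730, - strand) encodes Spot 14, a nuclear protein that responds to thyroid hormone and is associated with lipogenesis. Its level was 83.1, 84.2, 98.8 and 99.8 CPM in controls, and 4.75, 27.6, 18.1 and 14.3 CPM in knockouts. The knockout mice differed widely among themselves for Thrsp, with mouse 1 lowest and mouse 2 highest, and the log2 fold change was -2.40 (SE 0.33).

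Ecscr, Gp9, Adgrg1 and Bank1 encode proteins of the cell surface or adaptors of receptor signalling. Ecscr encodes an endothelial transmembrane protein that modulates signalling through a vascular growth factor receptor. Controls held 353, 351, 364 and 382 CPM of Ecscr and knockouts 13.03, 58.5, 25.1 and 16.9 CPM, with a log2 fold change of -3.58 (SE 0.37). Gp9 (chr6:87778072-87779768, + strand) encodes platelet glycoprotein IX, a part of the von Willebrand factor receptor. It was the least abundant, at 39.9, 41.2, 40.5 and 37.7 CPM in controls and 1.49, 5.29, 2.06 and 2.48 CPM in knockouts, resting on 16 to 53 UMIs per knockout mouse. Its log2 fold change was -3.73 (SE 0.24). Adgrg1 (chr8:94974751-95014217, + strand), also called GPR56, is an adhesion G protein-coupled receptor. It was at 162, 170, 166 and 176 CPM in controls and retained 40.7, 72.0, 62.4 and 51.0 CPM in knockouts, a log2 fold change of -1.47 (SE 0.14). Bank1 (chr3:136053363-136326066, - strand) encodes a scaffold protein of B cell receptor signalling. Bank1 was at 264, 266, 231 and 259 CPM in controls and at 11.1, 47.5, 9.72 and 19.5 CPM in knockouts, a log2 fold change of -3.45 (SE 0.40). Leaving out knockout mouse 2, which was highest for 9 of the 10 genes, moved Bank1 to -4.12, Ecscr to -4.18 and Gp9 to -4.17.

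Crybb1 (chr5:112255815-112269585, + strand) encodes a β-crystallin, a structural protein of the lens. Its level was 319, 333, 265 and 313 CPM in controls and 39.7, 49.4, 29.7 and 27.4 CPM in knockouts, a log2 fold change of -2.97 (SE 0.16). Inka1 (chr9:107984223-107985879, - strand) encodes an inhibitor of the kinase PAK4, which acts on the actin cytoskeleton. Inka1 was at 131, 123, 123 and 120 CPM in controls and at 28.8, 53.2, 45.9 and 42 CPM in knockouts, so that 34.2% of the control mean remained, and the log2 fold change was -1.44 (SE 0.14). On the opposite strand Gm31243 overlaps Bank1, Gm26542 overlaps Ltc4s, Gm20661 overlaps Inka1 and 1700066B19Rik overlaps Ecscr. Whether counting used strand was not stated in the sources used here.

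The shares of cells with a UMI moved with the levels. Each cell was thinned to 2000 UMIs so that depth was equal, which left out 288 control and 329 knockout microglia-like cells. Ltc4s was then detected in 70.3% ± 0.955 of control and 26.2% ± 4.11 of knockout cells (SD, n = 4 mice), and Gp9 in 8.22% ± 0.713 and 0.640% ± 0.434. The other 8 genes lay between these in the controls, from 17.0% (Thrsp) to 64.9% (Ckb), and in the knockouts from 2.90% (Thrsp) to 28.0% (Ckb). Without thinning the shares were higher in both groups, for example 86.1% and 43.6% for Ltc4s.

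Free RNA in the droplets sets a floor under such residues. All mice shared 1 library, and the barcodes with at most 100 UMIs, which are mostly empty droplets, held 234 CPM of Crybb1, 662 CPM of Ltc4s and 563 CPM of Ckb, levels near those of control microglia. T cell-like cells, which should lack most of these genes, were used as a reference for residual RNA. The natural killer cell markers Gzma and Nkg7 led their cluster beside Cd3g and Trbc2, and no separate class of natural killer cells was formed. Levels in this class differed between the genotypes although the library was shared, with Crybb1 at 136 CPM in the T cell-like cells of control mice. They are therefore not taken as a measure of the shared free RNA. In T cell-like cells of knockout mice Crybb1 was at 13.3 CPM (95% Poisson interval 6.86 to 23.2, which covers counting error only) and Bank1 at 4.43 CPM (1.21 to 11.3), below the 36.0 CPM (34.2 to 37.8) and 21.2 CPM (19.9 to 22.6) of knockout microglia-like cells. The ratio of knockout microglia to knockout T cells was 1.78 to 4.80 for 9 genes. The T cell side rested on 1 UMI for Gp9, 4 for Bank1 and 5 for Thrsp. The T cell interval of Gp9, 0.028 to 6.17 CPM, held its level in knockout microglia, 2.77 CPM. For Ckb it was 1.14, and knockout monocyte-like cells held more Ckb than knockout microglia, 239 CPM against 165 CPM. The thinned share of T cells with a Ckb UMI in knockouts was 22.0% (exact binomial interval 16.0 to 29.1) against 27.9% (27.0 to 28.9) of microglia, at median depths of 4057 and 4284 UMIs before thinning. Ckb in knockout T cells was at 25.8% of its level in the empty droplets, against 3.44% to 15.6% for the other 9 genes, and whether T cells hold Ckb RNA of their own was not tested.

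The number of the 10 genes detected in a cell was counted after thinning. The median control cell held 4 of them, and 53.4% to 57.2% of the cells of a control mouse held 4 or more, which is called member-rich here. In the knockout mice 1.04%, 5.76%, 1.68% and 1.69% of cells were member-rich. The exact 95% interval for mouse 2 was 4.83% to 6.82%, above the interval of each other knockout mouse. No gene of the set was detected in 34.3% to 42.4% of knockout cells and in 1.35% to 1.72% of control cells.

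**Figure D2:**
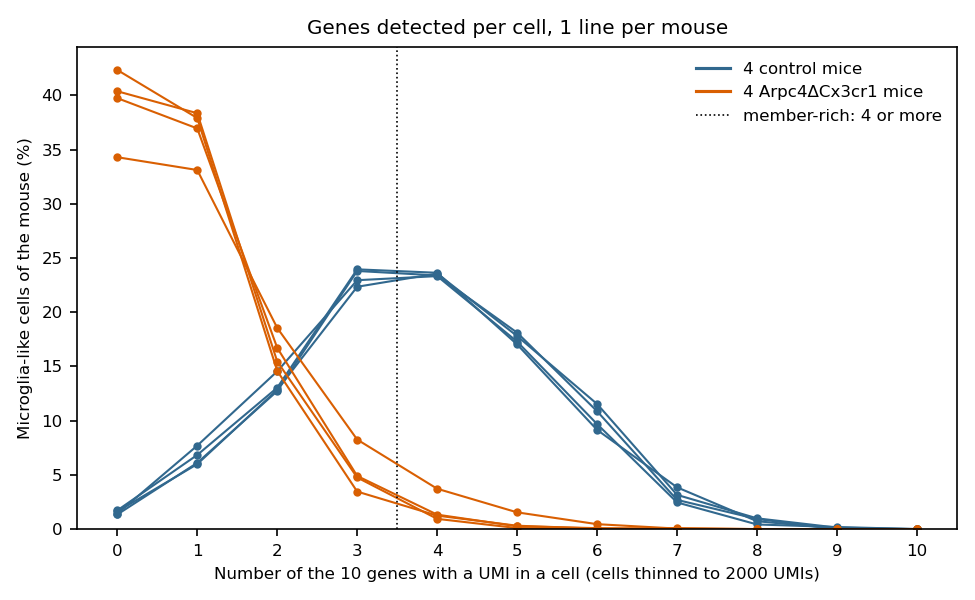
Share of the microglia-like cells of each mouse, in percent, by the number of the 10 genes with a UMI after thinning to 2000 UMIs, with 1 line per mouse and a dotted line at the lower limit of member-rich cells. The control lines peak at 3 to 4 genes and lie over each other, the knockout lines peak at 0, and the line of knockout mouse 2 has the heaviest tail.

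The 226 member-rich knockout cells were set against the other knockout cells of the same mice, over genes that had not been counted to choose them. Of 11390 such genes, 585 were called by edgeR with the mouse as a block, 212 higher and 373 lower, and 5.22% of all genes were called in either direction. The counted genes had been chosen as leading genes of groups made mostly of control cells, so counting them favours cells that resemble control cells. Comparisons of member-rich cells, here and below, are therefore not independent of that choice. Their p-values describe the difference between the chosen cells and the others, and no more is read from them. The homeostatic genes P2ry12 and Tmem119 were higher in member-rich cells, with log2 fold changes of 0.96 (SE 0.12, adjusted p = 3.52e-13) and 0.95 (SE 0.12, adjusted p = 5.89e-13). Apoe, which encodes a lipid carrier raised in activated microglia, was lower by -0.83 (SE 0.15, adjusted p = 1.13e-06), and Axl, a receptor for dying cells, by -0.96 (SE 0.15, adjusted p = 5.06e-08). Apoe lost its call without knockout mouse 2, at -0.68. P2ry12 stood at 947, 1749, 1416 and 1486 CPM in the member-rich cells of the 4 mice and at 493, 869, 732 and 667 CPM in their other cells, higher in 4 of 4 mice.

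Arpc4 in member-rich knockout cells was at 134, 219, 240 and 174 CPM, and in the other cells at 146, 140, 134 and 130 CPM. It was higher in 3 of 4 mice, with a log2 difference of 0.49 (SE 0.14, adjusted p = 0.0133). The call was lost without mouse 2, 3 or 4. Without mouse 2 the value was 0.39 (adjusted p = 0.547), without mouse 3 it was 0.43 (0.12) and without mouse 4 it was 0.52 (0.056), and DESeq2 gave 0.50 (adjusted p = 0.158). With 5 or more genes required for a member-rich cell it was 0.60 (adjusted p = 0.521). Member-rich cells of mouse 1 held Xist in 20 of 22 cells, 90.9%, close to the 95.1% of its other cells, and a Y-linked UMI in 1. The share of tag UMIs that belonged to the cell's own tag was a median of 66.2% in member-rich and 74.9% in other cells of mouse 2, 71.7% and 81.9% in mouse 3, 80.6% and 82.8% in mouse 4, and 97.5% and 97.9% in mouse 1. Tags of control mice took 8.37% and 6.56% in mouse 2 and 6.77% and 4.60% in mouse 3. They took 4.58% and 4.08% in mouse 4 and 0.957% and 0.791% in mouse 1. Member-rich cells were also shallower, at 3385 against 4049 UMIs in mouse 2. The part of tag purity, of depth and of the choice of the cells in these differences was not tested.

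Beyond the genes given above, the largest rises in member-rich knockout cells were in Adcy8, an adenylate cyclase, at 13.1 CPM over the pooled member-rich cells against 1.01 CPM, Rasgrp4, a Ras exchange factor, at 8.08 against 1.15 CPM, Csmd3 at 811 against 121 CPM, Tmem52 at 25.2 against 3.10 CPM, and Slco4a1, an organic anion transporter, at 13.1 against 2.30 CPM. Apart from Csmd3 (log2 2.55, SE 0.12), these rested on 8 to 25 UMIs in member-rich cells. Rasgrp4 was not called when any 1 mouse was left out, and Slco4a1 was not called without mouse 2 or without mouse 3. The 5 largest falls, Klra2, Cd5, Stard4, Il12b and Mmp12, had no UMI among the 990601 of the member-rich cells. Against a floor of 3 UMIs over these cells, which is 3.03 CPM, they were at least 5.63-fold, 2.56-fold, 2.38-fold, 1.93-fold and 2.62-fold lower. Klra2, an inhibitory Ly49 receptor gene, kept its call when any 1 mouse was left out and lost it among cells microglia-like at a resolution of 0.4 (adjusted p = 0.101). The calls of Cd5, Stard4 and Mmp12 were lost without mouse 2, without mouse 3 and without mouse 4, and that of Il12b without mouse 2 or mouse 4.

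The cells of the knockout mice were next divided by marker genes of states, and the 10 genes were compared between the positive and negative cells of the same mice. The genes had been chosen as leading genes of groups made mostly of control cells, and the markers of these states led other groups. The comparisons here, in knockout and in control mice, are therefore not independent of that choice. Cells with a UMI of Ms4a7, a membrane protein typical of border macrophages, made up 14.8% to 24.7% of knockout microglia-like cells after thinning. In Ms4a7-positive cells 7 of the 10 genes were lower at an adjusted p under 0.05, where 8.61% of all 11720 genes tested were called lower. Crybb1 was at 16.7, 17.8, 15.7 and 17.4 CPM in the positive cells of the 4 mice and at 46.5, 55.6, 31.6 and 29.3 CPM in the negative cells. The positive cells were alike across mice for Crybb1 and all of them lay below all negative cells, with a log2 difference of -1.20 (SE 0.13, adjusted p = 1.36e-06). These positive values lay within the Poisson interval of knockout T cell-like cells, at 13.3 CPM (6.86 to 23.2). The part of such residual RNA in their likeness was not tested. Adgrg1 stood at 19.3, 28.8, 24.9 and 20.8 CPM against 47.0, 81.4, 68.5 and 59.3 CPM, without overlap (log2 -1.41, SE 0.10, adjusted p = 2.15e-09). Ltc4s was at 124, 103, 94.4 and 91.3 CPM against 230, 221, 178 and 152 CPM, also without overlap (log2 -0.87, SE 0.06, adjusted p = 4.84e-09). Slc2a5, Thrsp, Ecscr and Inka1 were lower in 4 of 4 mice, by log2 -1.37, -1.32, -1.17 and -0.45.

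Bank1, Ckb and Gp9 did not pass the test in this gate. Bank1 was higher in Ms4a7-positive cells in 2 of 4 mice and lower in 2, with a log2 difference of 0.37 (SE 0.16, adjusted p = 0.147). Without mouse 1 it was 0.47 and past the threshold (adjusted p = 0.0424). Ckb was lower in 4 of 4 mice by -0.16 (SE 0.06, adjusted p = 0.0848). Gp9 was lower in 4 of 4 mice by -1.06 (SE 0.40, adjusted p = 0.0799), on few UMIs. The class of the Ms4a7-positive cells depended on the resolution of the clustering. At a resolution of 0.4 in place of 0.8, 914 of these 1808 cells (50.6%) fell in a cluster named CAM-like, against 2.07% of the negative cells. The CAM list without Ms4a7 summed to 51.1 to 198 CPM in the positive and 13.3 to 39.8 CPM in the negative cells, and to 4352 to 11874 CPM in the CAM-like class of the knockout mice. When only cells called microglia-like at a resolution of 0.4 were compared, 7 genes were called again, with Ckb (-0.24, adjusted p = 0.0316) in place of Inka1 (-0.14, adjusted p = 0.652), Crybb1 was at -0.93, Adgrg1 at -0.96, Ltc4s at -0.58, Ecscr at -0.72 and Bank1 at 0.08. Ms4a7-positive cells were shallower than negative cells, with medians of 3227 to 3960 against 4168 to 4711 UMIs before thinning, and the part of this in the result was not tested.

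The gate on Cst7, which encodes cystatin F and marks microglia in disease and injury, gave a different set. Cst7 UMIs were found in 27.4% to 59.9% of knockout microglia-like cells. Only Bank1 was called among the 10 genes, where 5.37% of all 11844 genes were called lower. It was at 9.18, 16.3, 6.31 and 6.46 CPM in Cst7-positive and at 12.04, 66.4, 15.5 and 34.1 CPM in Cst7-negative cells, lower in each mouse, with a log2 difference of -1.69 (SE 0.18, adjusted p = 4.06e-07). Ecscr was at -0.30 (SE 0.11, adjusted p = 0.0749), was called among cells microglia-like at a resolution of 0.4 (-0.46, adjusted p = 0.0068), and without mouse 1 Ecscr and Crybb1 were called as well, at -0.39 and -0.32. The remaining genes had log2 differences from -0.10 to 0.14. Bank1 thus fell in the gate in which most of the others were not called, and was not called in the Ms4a7 gate in which 7 others were.

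**Figure D3:**
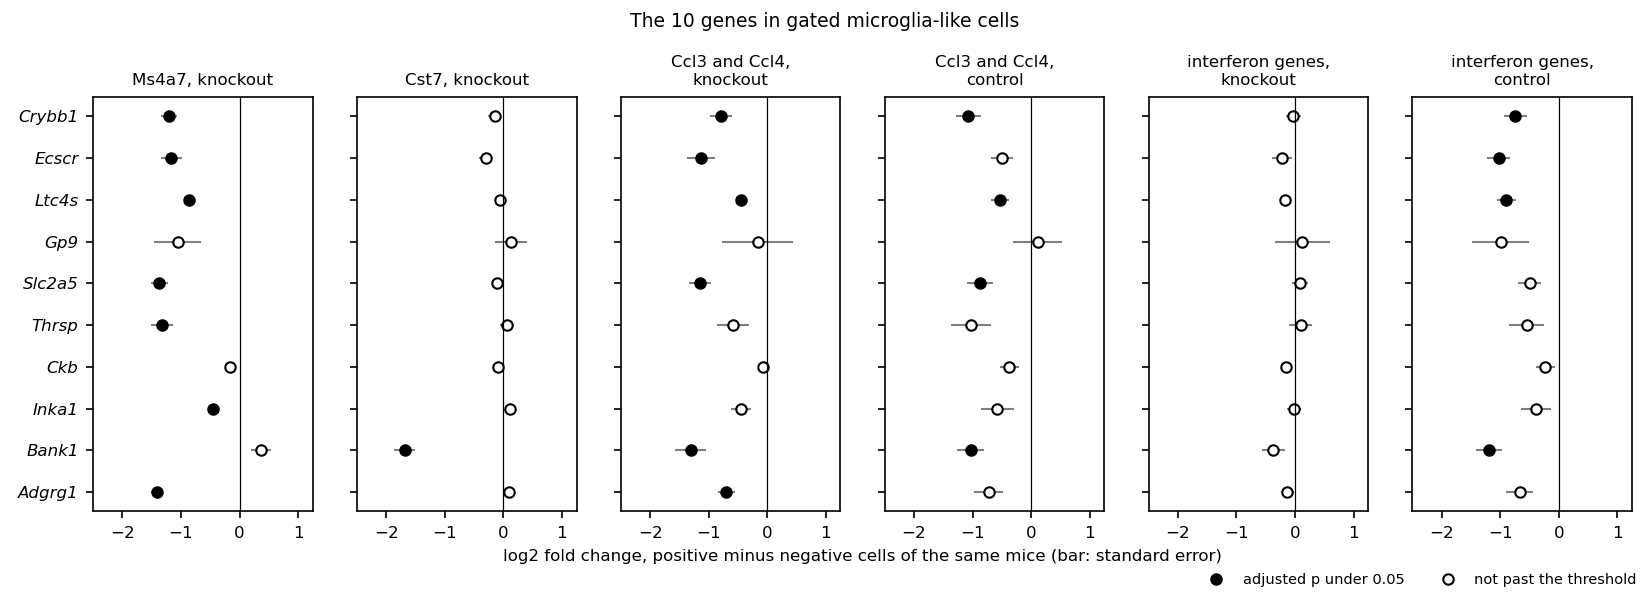
Log2 fold change of each gene between positive and negative microglia-like cells of the same mice, with its standard error, for 4 gates in Arpc4ΔCx3cr1 mice and 2 of them also in control mice. Filled points passed an adjusted p of 0.05: 7 genes in the Ms4a7 gate, Bank1 alone in the Cst7 gate, and 6, 4, 0 and 4 genes in the gates that follow.

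Cells that held UMIs of both Ccl3 and Ccl4, chemokines that attract other leukocytes, were compared with cells that held neither. In the knockouts, 4.99% to 10.5% of cells were positive, and Crybb1, Ecscr, Ltc4s, Slc2a5, Bank1 and Adgrg1 were lower in them in 4 of 4 mice, where 9.72% of 11379 genes were called lower. Slc2a5 was at 7.35, 20.96, 18.4 and 12.9 CPM against 23.2, 54.9, 37.5 and 29.1 CPM (log2 -1.15, SE 0.19, adjusted p = 0.00012). Bank1 had a log2 difference of -1.31 (SE 0.26, adjusted p = 0.000696) on 3 to 10 UMIs per mouse in positive cells. In controls the gate held only 14 to 25 cells per mouse, and Crybb1, Ltc4s, Slc2a5 and Bank1 were lower, where 1.86% of 10023 genes were called lower and the median over all genes was -0.11. Crybb1 was at 115, 117, 144 and 227 CPM in chemokine-positive control cells and at 323, 338, 268 and 316 CPM in the negative cells, with no overlap (log2 -1.07, SE 0.21, adjusted p = 4.55e-05). Bank1 was at 139, 149, 173 and 90.9 CPM against 274, 276, 238 and 270 CPM (log2 -1.03, SE 0.23, adjusted p = 0.000349). The control calls of Ltc4s and Slc2a5 were lost without control mouse 2, at -0.37 and -0.68, and with DESeq2, at -0.46 and -0.80.

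Interferon-positive cells, with UMIs of at least 2 of Ifit2, Ifit3, Rsad2, Cxcl10, Isg15 and Irf7, were set against cells with none. In the knockouts 0 of the 10 genes were called by edgeR and 0 by DESeq2, where 3.52% of 11376 genes were called lower and 2447 had an unadjusted p under 0.05. Their log2 differences ran from -0.37 (Bank1) to 0.12 (Gp9), Ltc4s had an adjusted p of 0.125 and was called without mouse 1 (-0.28) or without the filter on low counts (-0.21). In control mice the gate held 13 to 33 cells per mouse and 4 genes were lower, where 1.3% of 10186 genes were called lower and the median over all genes was -0.11. Ltc4s was at 240, 413, 454 and 400 CPM in positive and at 693, 705, 725 and 765 CPM in negative control cells (log2 -0.90, SE 0.16, adjusted p = 1.39e-06). Ecscr was at 135, 115, 155 and 280 CPM against 355, 353, 367 and 386 CPM (log2 -1.03, SE 0.19, adjusted p = 6.32e-06). Bank1 and Crybb1 followed, at -1.19 and -0.74, and Crybb1 was not called without control mouse 1 (-0.56) or mouse 3 (-0.71). The difference between the genotypes in these gates was not tested.

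Outside microglia, Ltc4s, Bank1 and Ckb stood out in other cell classes, as the plot of levels by class shows. In CAM-like cells of control mice (286 cells) Ltc4s was at 538, 482, 554 and 487 CPM per mouse, 71.5% of the pooled microglial level, and Bank1 at 304, 344, 333 and 291 CPM, above that of control microglia. Bank1 was highest in B cell-like cells, at 473 CPM (367 to 599, 44 cells) in controls and 403 CPM (324 to 496, 37 cells) in knockouts, where its product has its known role. Ckb reached 445 CPM (401 to 493) in control monocyte-like cells, 241 CPM in CAM-like cells and 253 CPM in T cell-like cells. Among the named classes the other genes were highest in microglia-like cells of the control mice, and CAM-like cells held 6.29% to 17.5% of the microglial level of Crybb1, Ecscr, Gp9, Slc2a5, Thrsp and Adgrg1 and 53.6% of that of Inka1.

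**Figure D4:**
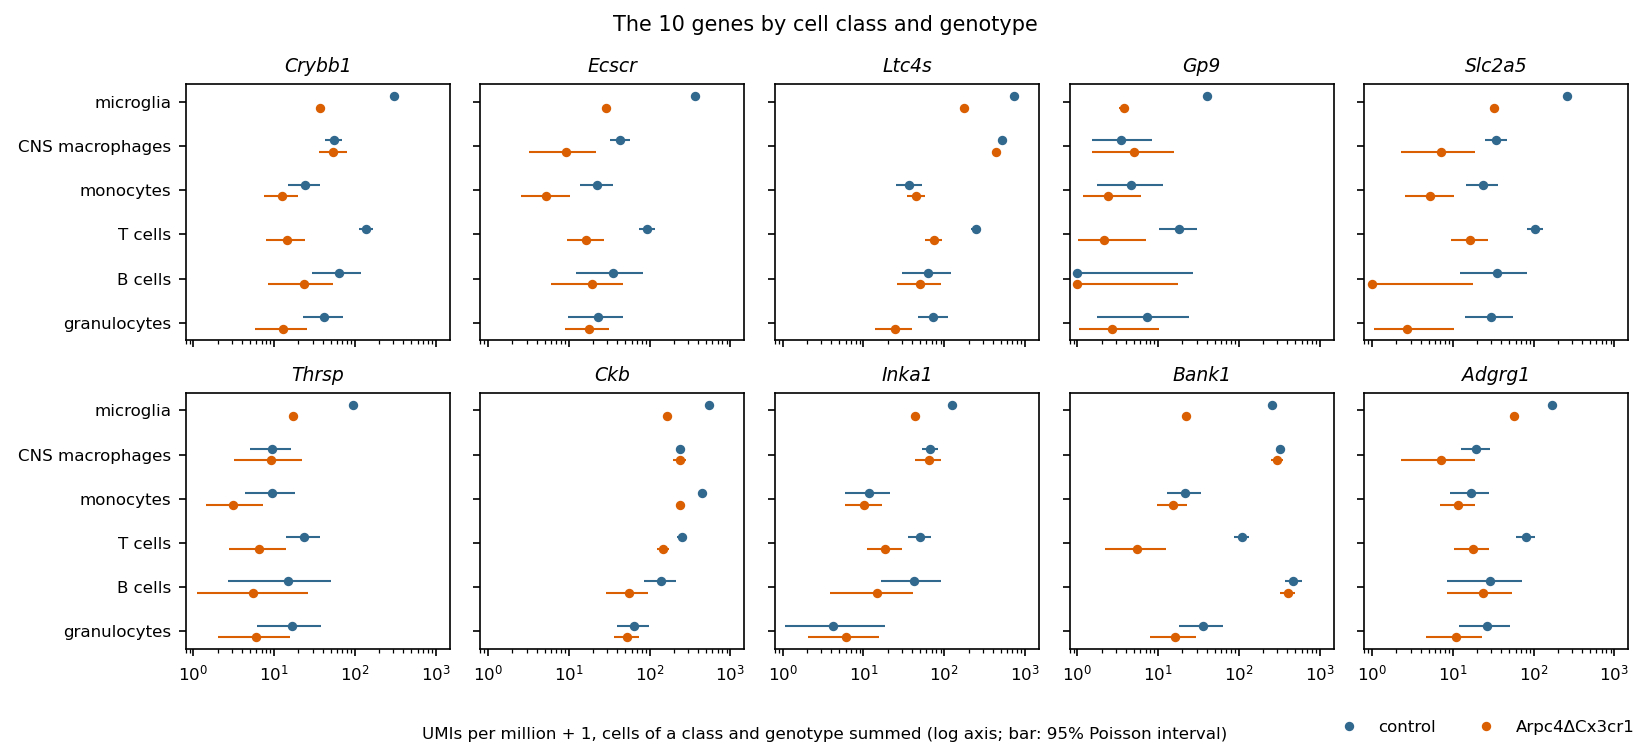
Level of each gene, in CPM plus 1 on a log axis, in 6 cell classes of control and Arpc4ΔCx3cr1 mice, with the cells of a class and genotype summed and bars for the 95% Poisson interval. The 2 genotypes lie far apart in microglia-like cells for every gene, and close together in CNS-associated macrophage-like cells for Ltc4s, Ckb, Inka1, Bank1 and Crybb1.

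T cell-like cells of control mice carried all 10 genes, at 24.2% to 46.8% of the level in control microglia, with sums over the 10 genes of 913 to 1177 CPM per mouse against 260 to 403 CPM in the knockouts. Csf1r, a microglial marker, was at 771 to 1075 CPM in control and at 340 to 530.3 CPM in knockout T cell-like cells, so microglial RNA was present in this class. Crybb1 was at 76.8 to 153 CPM in control and at 0 to 33.6 CPM in knockout T cell-like cells, and Ltc4s at 215 to 294 CPM and 67.1 to 82.6 CPM. The groups did not overlap for either gene, and no test was made, because the genes were chosen for this direction and the class held microglial RNA. The part of microglial RNA in these T cell values was not tested. Of the CAM levels in controls, those of Ltc4s and Bank1 exceeded the T cell level (246 and 108 CPM) and the others did not or overlapped with it in their counting intervals.

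The genotype comparison within CAM-like cells was added after the values had been seen. Of the 10 genes, 5 passed the filter on low counts, and 0 were called by edgeR and 0 by DESeq2, where 0.477% of 3351 genes were called lower, 369 genes had an unadjusted p under 0.05 and 35 were called in either direction. Ltc4s was at 326, 470, 277 and 796 CPM in the CAM-like cells of the knockouts, in a range that holds all 4 control values, with a log2 difference of -0.16 (95% interval -0.65 to 0.32, adjusted p = 0.857). Bank1 was at 93.0, 417, 182 and 620 CPM, with a log2 difference of -0.02 (-0.66 to 0.62, adjusted p = 0.99). The differences of Crybb1, Ckb and Inka1 were 0.01, -0.02 and -0.03. With 22 to 45 CAM-like cells per knockout mouse these intervals were wide, and that of Crybb1 ran from -0.86 to 0.88. Without the filter, Ecscr was called lower by log2 -2.35 (SE 0.63, adjusted p = 0.0276), from 42.6 CPM to 8.17 CPM in pooled cells, while its level in control CAM-like cells was below that in control T cell-like cells.

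In microglia-like cells the log2 fold changes of these 5 genes were -2.97 (Crybb1), -1.92 (Ltc4s), -1.61 (Ckb), -1.44 (Inka1) and -3.45 (Bank1). Since these values had chosen the genes, the difference between the 2 classes was not tested. In monocyte-like cells only Ckb passed the filter and it was lower in knockouts, by log2 -0.99 (SE 0.19, adjusted p = 0.00959), where 3.92% of 3161 genes were called lower.

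Within control microglia the levels of the genes did not all follow the same order over the main clusters. The 3 clusters numbered 1, 2 and 3 held most control cells (2651, 2420 and 2327), and although the 10 genes had been left out when these were formed, every gene of the clustered cells counts as used, so the values are given without a test. All genes but Bank1 were highest in cluster 2 and lowest in cluster 1. Against all other cells, Crybb1, Ecscr, Ltc4s, Ckb, Gp9, Slc2a5, Thrsp and Inka1 were among the leading genes of cluster 2, and Bank1 of cluster 1. The 10 genes had been chosen as leading genes of groups made mostly of control cells, so this order is not independent of that choice. Ckb was at 834 ± 25.9 CPM in cluster 2, 601 ± 40.2 in cluster 3 and 404 ± 13.8 in cluster 1 (SD, n = 4 mice), and Ltc4s at 1075 ± 71.8, 795 ± 58.8 and 560 ± 28.8 CPM. Bank1 ran the other way, at 140 ± 20.2, 246 ± 15.4 and 342 ± 27.2 CPM. Cluster 2 also had the shallowest cells, at a median of 2766 UMIs against 3720 and 4980, and less of the nuclear RNA Malat1, at 16992 CPM against 28157 and 28468 CPM. Csmd3, whose gene spans 1211427 bases, was likewise lower in cluster 2, at 1341 CPM against 2679 and 3945 CPM. The Bank1 gene spans 272704 bases and the other 9 span 1657 to 39467 bases. The part of depth, nuclear RNA and gene length in this order was not tested.

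**Figure D5:**
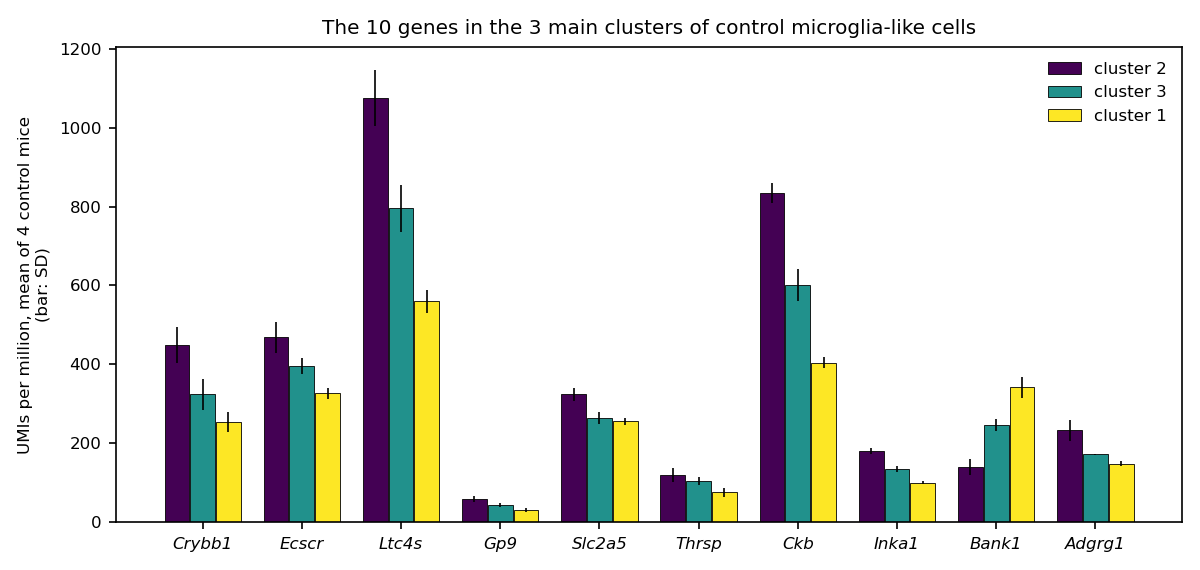
Mean level over the 4 control mice, in CPM with SD bars, of each gene in the 3 main clusters of control microglia-like cells. The 9 genes other than Bank1 fall from cluster 2 over cluster 3 to cluster 1, and Bank1 rises in the same order.

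The 996 control cells in clusters with no assigned class, at a median of 1210 UMIs, held Ltc4s at 793 CPM, Ecscr at 331 CPM and Slc2a5 at 317 CPM, against 728, 364 and 260 CPM in pooled control microglia. Crybb1 stood at 96.1 CPM and Ckb at 253 CPM in them, below the 306 and 541 CPM of pooled control microglia. Hemoglobin genes led the larger of these clusters.

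From cell to cell the genes were only weakly linked. Over the 45 pairs, the median Spearman correlation within a control mouse, averaged over the 4 mice, was 0.0366, from -0.0326 (Ckb with Bank1) to 0.0984, over 966 to 2219 thinned cells that share a library. It was above 0 in all 4 mice for 29 pairs, and the 5 negative averages included Bank1 with Ckb, Adgrg1, Thrsp and Inka1. Double-positive control cells occurred at 0.962 to 1.18 times the product of the 2 single shares. In knockouts the median correlation was 0.0372, and double-positive cells occurred at a median of 1.52 times that product, from 0.788 times for Thrsp with Inka1 to 2.44 times for Ecscr with Bank1. In counts this sparse, weak correlations are a description only.

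Genes that act with the 10 genes were taken from fixed lists, and a microglia signature list of 16 genes was counted with them. That list includes the 11 microglial markers summed above, and all listed genes are called partner genes below. Of 126 listed genes, 83 were tested, and 55 passed the threshold, 14 higher and 41 lower in knockouts. Of the 41 lower genes, 15 came from the signature list. Of all genes tested, 46% were called in either direction, 22.8% higher and 23.1% lower. In the leukotriene list 4 of 8 tested genes were lower and 0 higher. Alox5ap, the protein that presents arachidonic acid to 5-lipoxygenase upstream of Ltc4s, fell from 331 ± 15.6 to 134 ± 53.1 CPM (log2 -1.20, SE 0.21, adjusted p = 0.000836), and Abcc1, which exports leukotriene C4, by log2 -0.62. Ggt5, which converts leukotriene C4 to D4, fell from 37.0 ± 1.47 to 12.6 ± 5.83 CPM (log2 -1.45, SE 0.25, adjusted p = 0.000787). Alox5 and Lta4h did not pass the test, at log2 -0.39 and 0.18.

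Hexose transport and fructose metabolism moved both ways, with 4 of 11 tested genes higher and 5 lower. While Slc2a5 was low, the glucose transporter gene Slc2a1 rose from 21.7 ± 2.17 to 49.5 ± 5.78 CPM (log2 1.29, SE 0.10, adjusted p = 3.07e-06). Slc2a6 rose by log2 2.12 and Aldoc, an aldolase, by 3.18, both from under 2 CPM in controls. In the lipogenesis list 1 of 10 tested genes rose and 4 fell. Acaca, the rate-limiting enzyme of fatty acid synthesis, rose from 32.8 ± 4.61 to 212 ± 44.6 CPM (log2 2.80, SE 0.16, adjusted p = 4.65e-07), whereas the thyroid hormone receptor genes Thra and Thrb, whose products are known to control Thrsp, fell by log2 -1.60 and -2.01. In the creatine list of 3 tested genes Slc6a8, the creatine transporter, rose by log2 0.80 (adjusted p = 0.0321) from 1.22 CPM and Gamt, the last enzyme of creatine synthesis, fell by -0.59. The Slc6a8 call was lost when any 1 of 6 mice was left out, the exceptions being control mouse 1 and knockout mouse 2.

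Of the endothelial partners of Ecscr, 2 of 3 tested genes rose and 1 fell. Flt1, a vascular endothelial growth factor receptor, rose from 4.20 ± 0.750 to 71.6 ± 24.6 CPM (log2 4.23, SE 0.27, adjusted p = 7.04e-07), and Kdr by 1.09 (adjusted p = 0.0245), a call lost without control mouse 1, 2 or 3. Pecam1, an adhesion molecule of endothelium and leukocytes, fell from 23.5 ± 0.818 to 3.52 ± 1.05 CPM (log2 -2.64, SE 0.16, adjusted p = 6.00e-07). The endothelial marker list summed to 31.3 to 33.5 CPM in control and 63.0 to 116 CPM in knockout microglia-like cells, with Cldn5 at 0 and Cdh5 under 1 CPM. For Gp9, the only tested gene of the platelet receptor list, Itgb3, fell by log2 -1.10 (SE 0.11, adjusted p = 1.44e-05).

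In the B cell receptor list 1 of 12 tested genes rose and 4 fell. Cd79b, a signalling chain of the B cell receptor that microglia are known to express, fell from 36.2 ± 2.22 to 7.74 ± 3.63 CPM (log2 -2.13, SE 0.22, adjusted p = 1.99e-05), Itpr3 fell by -1.51 and Itpr1 rose by 0.62. Cd79a and Ms4a1, which define B cells, were at or under 1 CPM in microglia-like cells. In the crystallin list of 8 tested genes 3 rose and 2 fell. Cryba4, which lies in the same family as Crybb1, fell from 79.8 ± 7.19 to 29.4 ± 5.46 CPM (log2 -1.33, SE 0.12, adjusted p = 6.35e-06), Cryl1 fell by -0.65, and Crybg1 rose by 1.28 from 1.30 CPM.

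The list around Inka1 held 5 tested genes, of which 1 rose and 2 fell. Pak1 rose by log2 0.52 (SE 0.07, adjusted p = 0.000168), and the small GTPases Rac1 and Cdc42, which activate PAK kinases and actin assembly, fell by -0.34 and -0.25. Among 6 tested adhesion G protein-coupled receptors, Adgrg5 rose by 3.52 from 0.19 CPM and Adgrl1 and Adgre1 fell by -1.29 and -0.38, with Adgre1 not called when any 1 control mouse was left out. Of the 16 genes of the microglia signature list 15 fell. P2ry12, P2ry13 and Gpr34 had the largest falls, by log2 -1.84, -1.74 and -1.20.

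The genes most like the mean pattern of the 10, over 9 groups of cell class and genotype with at least 50 cells, were Abcb4, a phospholipid transporter, with a Pearson correlation of 0.98, Cmtm6, which stabilises a checkpoint ligand at the cell surface, with 0.97, Slc39a12, a zinc transporter, with 0.96, P2ry13, a receptor for ADP, with 0.95, and Gm32849 with 0.95. These points share 1 library and its free RNA, and the values are a description. In pooled microglia-like cells Slc39a12 was at 24.6 CPM in controls and 1.29 CPM in knockouts, Abcb4 at 81.3 and 18.2 CPM, and Cmtm6 at 272 and 89.7 CPM. Among the 10 genes themselves, Crybb1 lay closest to the mean pattern (0.99) and Ckb farthest from it (0.57).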

How the data were processed

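CD45+ brain cells of 8 mice were profiled in 1 tagged droplet library (10x Genomics 3′ v3.1 chemistry). The authors deposited UMI counts per gene and cell, 1 matrix per mouse, which they had made by aligning to mm10 and splitting cells by tag. The submitters' notes give Cell Ranger 6.1.2, while the study's methods name a later release. Mice were assigned from the tag map in the labels.

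Cells under 200 detected genes or above 20% mitochondrial counts were removed. No doublet caller was run beyond the authors' tag assignment. Seurat 5.3.0 clustered the cells (10000 variable genes without the 7 of the 10 genes among them, 20 components, resolution 0.8), and classes were named from fixed markers. The erythroid list was not used for naming, because hemoglobin led otherwise different clusters. Counts were summed per mouse and class or gate and tested with edgeR 4.0.16 (quasi-likelihood test, TMM, filter on low counts, Benjamini-Hochberg adjustment over all genes tested, threshold 0.05) in R 4.3.3, with the mouse as a block wherever both sums came from 1 mouse. DESeq2 1.42.0, other filters, gates and depths, and each mouse left out were tried as alternatives. The scripts were tested on simulated data. A log2 value below 0 is lower in knockouts, or in positive cells. Mice were separate animals, so p-values of genotype comparisons measure the spread between mice. Where the mouse is a block, p-values measure the spread over mice of the difference within each mouse. Poisson and exact binomial intervals (95%, SciPy 1.17.1) cover counting error only. Total UMIs per mouse ran from 5251527 to 12878691.

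The 10 genes, gene lists and gates were chosen with earlier results of these data known. Comparisons in CAM-like and monocyte-like cells, and the gates at a resolution of 0.4, were added after values had been seen. Named were the 10 genes, Arpc4, the gate genes, up to 3 genes with the largest changes per partner list, the 5 largest rises and falls in member-rich cells, and the 5 genes most like the mean pattern in log2(CPM + 10). P2ry12, Tmem119, Apoe, Axl, Csf1r, Malat1, Cldn5, Cdh5, Cd79a, Ms4a1, Alox5 and Lta4h were named beside these, after their values were seen. Promoter windows came from RefSeq (GRCm38.p6) and gene coordinates from GENCODE M21 on GRCm38. Motifs were matched as exact letters on both strands.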

Additional observations from a re-analysis of the deposited data

Results flagged for a closer look

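The share of member-rich cells in Arpc4ΔCx3cr1 mouse 2, 5.76%, lay far from the 1.04% to 1.69% of the other 3 knockout mice by Dixon's criterion. It was the only such value among 42 groups of 4 mice tested, where chance gives about 5%. Tag purity in these cells was 66.2% against 74.9% in the other cells of that mouse, and 38.6% of them fell in clusters held mostly by control cells, against 4.81% of its other cells. That share was also higher in member-rich than in other cells in mouse 3 (30.8% against 0.83%) and mouse 4 (10.5% against 0.226%), and 0 in both in mouse 1. The part of tag assignment in this share was not tested.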

How the results depend on the processing

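The 4 mice per genotype, and the 22 to 45 CAM-like cells per knockout mouse, limited the precision. Subtracting 10% of ambient RNA moved the median genotype log2 fold change of the 10 genes from -2.67 to -3.31, and that of Gp9 to -6.10. Counts that fell below 0 were set to 0. Gp9 was at 32.1 CPM in the empty droplets and at a mean of 2.83 CPM in knockouts, so its value rests on counts at or near 0. DESeq2 called 2 genes in place of 4 in the chemokine gate of controls and 222 in place of 585 genes in member-rich cells. Without the filter on low counts, 2 genes were called in the Cst7 gate, 1 in the interferon gate of knockouts and 1 in CAM-like cells. The marker gate for microglia and a clustering resolution of 0.4, the latter added after the data had been seen, each gave 2 in the Cst7 gate, and thinning to 1000 UMIs gave 2 in place of 4 in the interferon gate of controls. Requiring 1 more gene for a member-rich cell gave 153 called genes, and requiring 1 fewer raised their share in knockouts from 2.54% to 7.88%. Thinning to 1000 UMIs, with 2 genes in place of 4 required because the median control cell then held 2, made that share 10.1%. Thinning alone made the median share difference -18.7 percentage points in place of -31.1 (-38.4 unthinned) and the median correlation in controls 0.0225. Leaving out 1 mouse at a time gave a median log2 fold change of -2.95 to -2.44, 50 to 60 called partner genes, and a median share difference of -32.0 to -30.5. The member-rich share was then 1.47% to 3.04% and its called genes 188 to 708, with 188 without knockout mouse 2 and 375 without mouse 4. The genes called were 7 to 7 in the Ms4a7 gate, 1 to 3 in the Cst7 gate, 6 to 6 and 3 to 5 in the chemokine gates of knockouts and controls, 0 to 1 and 3 to 4 in the interferon gates and 0 to 0 in CAM-like cells. Of the other single-gene comparisons 1469 were unchanged, 18 gained and 85 lost a call, and 7 values moved. Unchanged meant the same side of the threshold. For the 10 genes by genotype, which were not tested, it meant a value within 2 standard errors. No called value changed sign, 43 uncalled ones did, and 9 comparisons had no adjusted p from DESeq2. The cause of these shifts was not tested.

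Mice of the 2 genotypes share only a number. Deviations of same-numbered mice correlated at -0.0776, -0.0134, -0.0462 and -0.0129 over 12729 genes. With that number as a replicate block the median log2 fold change was -2.73, 53 partner genes were called and 0 genes in CAM-like cells. In the gates the block is the mouse itself, and dropping this pairing left 4 called genes in the Ms4a7 gate, 0 in the Cst7 gate, 1 in the chemokine gate of knockouts and 148 in member-rich cells.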
